A study of Homo sapiens with 12 samples.

Results

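Lysosomal hydrolases and the activator proteins they need were followed across 12 RNA sequencing libraries of human lung cell lines. The 40 genes were chosen by symbol, whatever their level, and with earlier results of these data known. All 40 were found among the 57152 genes with a value in the deposited table. They comprised 10 cysteine proteases, 5 serine and aspartic proteases, 13 glycosidases, 5 sulfatases and sulfamidase, 5 lipid hydrolases and activators, and 2 acid phosphatases. AGA, an amidase of glycoproteins, was placed with the glycosidases. The 4 groups had 3 libraries each. LB cells received 10 µM amiodarone for 24 h after being seeded 24 h earlier in 10 mg/ml hydroxypropyl-beta-cyclodextrin (HPbCD), or 10 µM amiodarone without HPbCD, or 0.1% DMSO, the vehicle. A549 cells, a lung adenocarcinoma line, received 0.1% DMSO. The labels name A549 as the source of LB cells and do not say what was done to make them. Amiodarone is a cationic amphiphilic antiarrhythmic that collects in lysosomes, and HPbCD is a ring of sugars that can carry cholesterol. Cells given HPbCD without the drug and A549 cells given the drug were not analysed here, so HPbCD was read only on top of amiodarone.

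Lysosomal hydrolases digest proteins, glycans, lipids and phosphate esters at acid pH. Most are made in the endoplasmic reticulum as precursors, tagged with mannose 6-phosphate in the Golgi and carried onward by the mannose 6-phosphate receptors M6PR and IGF2R. Many of their genes hold an E-box of the CLEAR type, to which the transcription factors TFEB and TFE3 bind. Sphingolipid breakdown also needs small lipid-lifting activators, the saposins cut from PSAP and the GM2 activator GM2A. In alveolar type II cells the same enzymes meet surfactant, which is stored in lamellar bodies related to lysosomes, and cationic amphiphilic drugs are known for the phospholipid storage they cause there.

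Levels are in TPM, transcript abundance scaled for gene length and library, so levels of different genes can be set side by side. TPM keeps no read depth, and the depth behind each value is unknown. Differences are on the log2(TPM + 1) scale, given ± SE as the first group minus the second, and they understate changes of low genes. Adjusted p-values come from limma fitted to all 12 libraries and to the 13968 genes that averaged 1 TPM or more, with 0.05 as the threshold. LB DMSO against A549 DMSO is called the line comparison, and LB amiodarone against LB DMSO the amiodarone comparison. LB amiodarone plus HPbCD against LB amiodarone is called the addition of HPbCD or HPbCD on top, and against LB DMSO both agents. Cells were seeded in HPbCD 24 h before the drug, so these names give the contrast and not the order in time. Among the 40 hydrolases 39 were tested; ACP5, with a mean of 0.968 TPM, was not. The 4 comparisons share groups and are not independent of each other. Nothing in the labels says that the 3 libraries of a group were separate cultures, and a p-value here reflects the spread between these libraries alone, which may be technical. In bulk RNA, fewer cells of a type and less RNA per cell cannot be told apart.

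Macrophage and leukocyte markers, which would mark cells rich in lysosomes, summed to 0.99 to 1.13 TPM with amiodarone plus HPbCD, 1.23 to 2.53 TPM with amiodarone, 2.51 to 3.17 TPM with DMSO and 3.06 to 5.85 TPM in A549 cells. CD163 and MARCO were listed at 0 in all 12 libraries, and 1 of the 8 markers, CD14, averaged at least 1 TPM. CD14 was lower in LB than in A549 cells (-0.68 ± 0.21, limma, adjusted p 0.0246, up to 0.0925 with 1 library left out). It was also lower with both agents (-0.88 ± 0.21, adjusted p 0.0124, up to 0.053), and was not called with amiodarone or with HPbCD on top. Epithelial markers summed to 2561 to 2956 TPM with amiodarone plus HPbCD, 2748 to 3127 TPM with amiodarone, 2894 to 3223 TPM with DMSO and 7254 to 7791 TPM in A549 cells, led by KRT8 and KRT18. KRT19 of that list averaged 116 TPM with amiodarone plus HPbCD, 102 TPM with amiodarone, 51.4 TPM with DMSO and 233 TPM in A549 cells, and was higher with amiodarone than with DMSO (0.97 ± 0.16, limma, adjusted p 0.00355). KRT8, KRT18, EPCAM and CDH1 were not called with amiodarone (-0.03 ± 0.063, -0.11 ± 0.068, -0.24 ± 0.2 and -0.16 ± 0.16). CDH1 was lower with HPbCD on top (-0.63 ± 0.16, adjusted p 0.0468, up to 0.177 with 1 library left out) and with both agents (-0.78 ± 0.16, adjusted p 0.00465). KRT18 was lower with both agents (-0.29 ± 0.068, adjusted p 0.0126, up to 0.053 with 1 library left out). Alveolar type II markers summed to 1320 to 1579 TPM with amiodarone plus HPbCD, 1166 to 1273 TPM with amiodarone, 1363 to 1527 TPM with DMSO and 22.3 to 22.7 TPM in A549 cells. That sum came from SFTPB, SFTPC, SFTPD and ABCA3, while NKX2-1, the transcription factor of these cells, stayed at or under 0.15 TPM and SLC34A2 at or under 0.18 TPM. SFTPA1 and SFTPA2 stayed at or under 0.03 TPM and LAMP3 at or under 0.57 TPM. NAPSA was called in no comparison. With amiodarone SFTPB (-0.30 ± 0.073, adjusted p 0.0237) and ABCA3 (-0.29 ± 0.073, adjusted p 0.0321) were lower, and SFTPC and SFTPD were not called. With HPbCD on top SFTPB alone was called, as higher (0.31 ± 0.073, adjusted p 0.0336). Each of these calls was lost without some single libraries (adjusted p up to 0.121). Fibroblast markers summed to 6.56 to 7.39 TPM with amiodarone plus HPbCD, 10.6 to 16.1 TPM with amiodarone, 11.2 to 11.7 TPM with DMSO and 3.55 to 5.69 TPM in A549 cells. In LB against A549 cells COL1A1 (0.88 ± 0.17, adjusted p 0.00159) and LUM (1.43 ± 0.19, adjusted p 0.000101) were higher. With HPbCD on top of amiodarone COL1A1 was lower (-0.90 ± 0.17, adjusted p 0.0109), a call that ended on leaving out LB amiodarone replicate 3 (adjusted p 0.0509). With amiodarone LUM was higher (0.67 ± 0.19, adjusted p 0.0483), a call that ended on leaving out 11 of the 12 libraries 1 at a time (adjusted p up to 0.169). Endothelial markers stayed at or under 0.88 TPM in sum. The part of these marker differences in the hydrolase results was not tested.

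The summed level of the hydrolase transcripts was highest in LB cells with amiodarone plus HPbCD and lowest in A549 cells. Summed over the 40 genes they came to 7480 ± 117 TPM with amiodarone plus HPbCD, 6024 ± 115 TPM with amiodarone, 4880 ± 81.6 TPM with DMSO and 3070 ± 204 TPM in A549 cells (mean ± SD, n = 3). The libraries of the 4 groups did not overlap. The ratio of mean sums was 1.59 for LB over A549 cells, 1.23 for amiodarone over DMSO, 1.24 for amiodarone plus HPbCD over amiodarone, and 1.53 for both agents over DMSO. CTSL, PSAP, CTSD and CTSB held 56.9% of the sum over all libraries. Without those 4 genes the other 36 summed to 2901 ± 47.3 TPM with amiodarone plus HPbCD, 2623 ± 32.3 TPM with amiodarone, 2096 ± 32.8 TPM with DMSO and 1618 ± 79.9 TPM in A549 cells, again with no overlap between groups.

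Enzyme classes took unequal parts in those differences. Cysteine proteases made up 39.5% of the hydrolase sum with amiodarone plus HPbCD, 34.4% with amiodarone, 36.9% with DMSO and 32.2% in A549 cells, and the libraries of the 4 groups did not overlap. The ratio of amiodarone plus HPbCD to amiodarone was 1.42 for the cysteine protease sum, 1.27 for serine and aspartic proteases, 1.1 for lipid hydrolases and activators, 1.09 for glycosidases and 1.06 for sulfatases. The ratio of amiodarone to DMSO ran in another order, at 1.34 for glycosidases, 1.29 for lipid hydrolases and activators, 1.28 for serine and aspartic proteases, 1.15 for cysteine proteases and 1.07 for sulfatases. NEU1 alone rose from 64.8 to 214 TPM as the glycosidase sum rose from 788 to 1055 TPM. Median gene differences for amiodarone were 0.31 for lipid genes and 0.31 for serine and aspartic proteases. They were 0.19 for cysteine proteases, 0.18 for glycosidases and 0.07 for sulfatases. With 1 library left out these medians ran 0.283 to 0.368, 0.253 to 0.363, 0.155 to 0.216, 0.152 to 0.243 and 0.004 to 0.095 in that order. Acid phosphatases, with ACP2 as nearly all of the sum, went the other way with amiodarone, at a ratio of 0.879, and with both agents against DMSO, at 0.933, and gave 1.06 for the addition of HPbCD. The share of sulfatases was lowest with both agents, at 2.58% of the sum, against 3.03% with amiodarone, 3.49% with DMSO and 4.78% in A549 cells. A class sum is led by its highest genes, which were CTSL among cysteine proteases, CTSD among the other proteases, PSAP among lipid genes and, with the drug, HEXA, NEU1 and GLA among glycosidases. No test was made of a sum or a share.

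**Figure D1:**
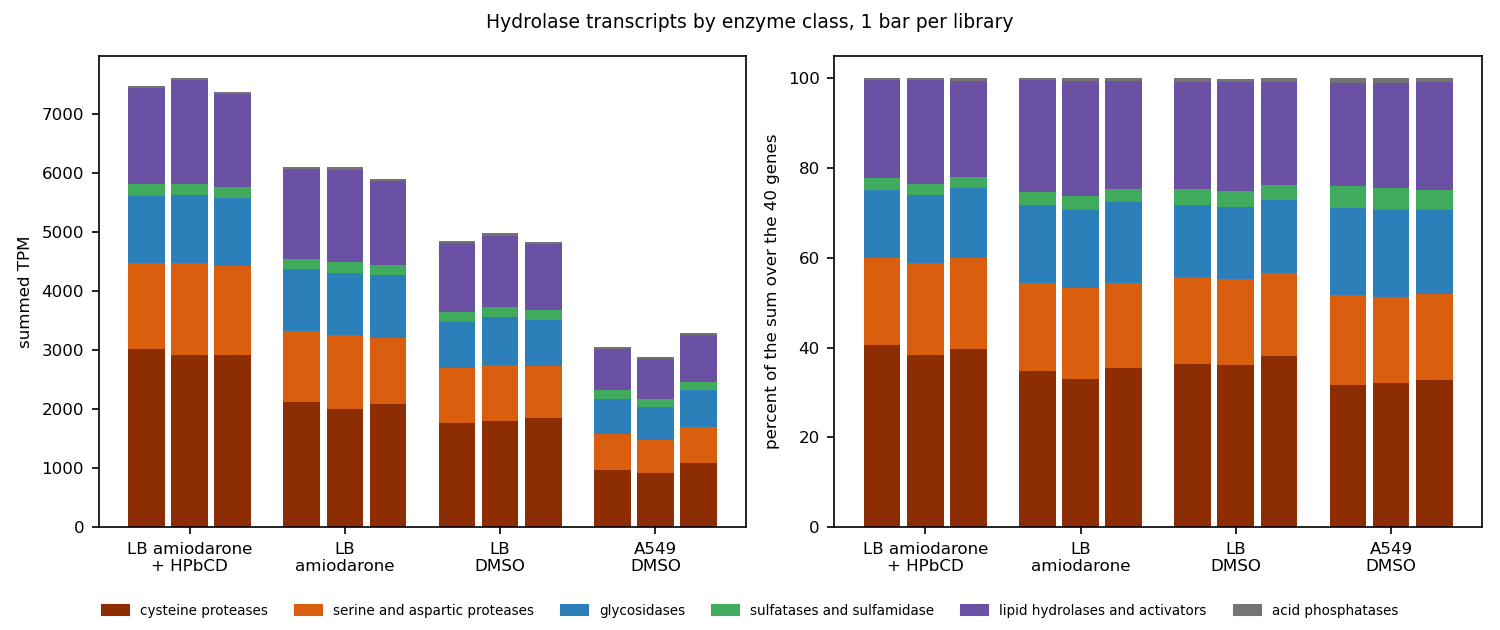
Summed TPM of the 40 hydrolase genes by enzyme class (left) and each class as a percent of that sum (right), 1 bar per library, for LB cells with amiodarone plus HPbCD, amiodarone or DMSO and for A549 cells with DMSO. The sums average 7480 TPM with amiodarone plus HPbCD, 6024 TPM with amiodarone, 4880 TPM with DMSO and 3070 TPM in A549 cells, and the cysteine protease share is largest with amiodarone plus HPbCD.

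Gene by gene, most tested hydrolases were higher in LB DMSO than in A549 DMSO. By limma's adjusted p, 28 of 39 were higher and 0 lower, while 14.2% of all tested genes were higher and 18.2% lower. Amiodarone against DMSO in LB cells gave 17 higher and 1 lower, the lower one being ACP2, beside 4.9% and 3.72% of all tested genes. Amiodarone plus HPbCD against amiodarone gave 8 higher and 0 lower, beside 2.71% and 1.36%. Amiodarone plus HPbCD against DMSO gave 23 higher and 0 lower, beside 10.1% and 7.81%. The list was chosen with earlier results of these data known, so these counts are a description. The median difference of the 39 genes was 0.37 for the line, 0.21 for amiodarone, 0.11 for the addition of HPbCD and 0.30 for both agents, and that of all tested genes was -0.035, -0.003, -0.008 and -0.018 in that order. Without a model, all 3 LB DMSO libraries lay above all 3 A549 libraries for 27 hydrolases (18.6% of all tested genes) and below for 0 (25.1%). For amiodarone these counts were 21 above (15.2%) and 2 below (14.8%), for the addition of HPbCD 16 above (12.9%) and 3 below (12.2%), and for both agents 24 above (19.0%) and 2 below (20.1%).

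The amiodarone count of 17 depended on the fit and on single libraries. It was 10 in a fit with no filter on low genes and 10 in limma without the mean-variance trend. It came to 8 on leaving out LB DMSO replicate 1, to 11 on leaving out LB DMSO replicate 2 or 3, and to 10 on leaving out LB amiodarone replicate 2 or 3, and the ACP2 call was lost without 8 of the 12 libraries. The count of 8 for HPbCD on top of amiodarone was 5 without LB amiodarone replicate 1 or LB amiodarone plus HPbCD replicate 2 or 3. With each library left out in turn, 21 of the 28, 8 of the 18, 4 of the 8 and 17 of the 23 calls held throughout. For both agents the calls of GLB1, PSAP, GM2A, DPP7 and GLA were among those kept. Their differences were 0.47 ± 0.078, 0.42 ± 0.075, 0.59 ± 0.098, 0.65 ± 0.077 and 0.37 ± 0.041 in that order.

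By class, 5 of 5 lipid hydrolases and activators, 11 of 13 glycosidases, 4 of 5 serine and aspartic proteases, 5 of 10 cysteine proteases and 2 of 5 sulfatases were higher in LB than in A549 cells, beside 14.2% of all tested genes. With amiodarone the counts were 3 of 5, 6 of 13, 4 of 5, 3 of 10 and 1 of 5 in the same order of classes, beside 4.9%. HPbCD added to amiodarone gave 1 of 5, 1 of 13, 2 of 5, 3 of 10 and 1 of 5, beside 2.71%. Both agents against DMSO gave 5 of 5, 6 of 13, 4 of 5, 6 of 10 and 2 of 5, beside 10.1%. Class medians for HPbCD on top of amiodarone were 0.18 for cysteine proteases, 0.18 for serine and aspartic proteases, 0.11 for lipid genes, 0.09 for glycosidases and -0.03 for sulfatases. With 1 library left out, the cysteine protease median ran from 0.15 to 0.22 and that of serine and aspartic proteases from 0.121 to 0.211. The last 3 medians also moved with single libraries. The lipid median was 0.06 on leaving out LB amiodarone plus HPbCD replicate 2. The glycosidase median was 0.019 on leaving out LB amiodarone replicate 1 and 0.056 on leaving out LB amiodarone plus HPbCD replicate 3. For sulfatases the median was -0.115 and -0.022 on leaving out LB amiodarone replicate 1 and 2, and -0.054 and -0.009 on leaving out LB amiodarone plus HPbCD replicate 1 and 2. Counts in classes of this size are a description, and no class was tested against another.

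**Figure D2:**
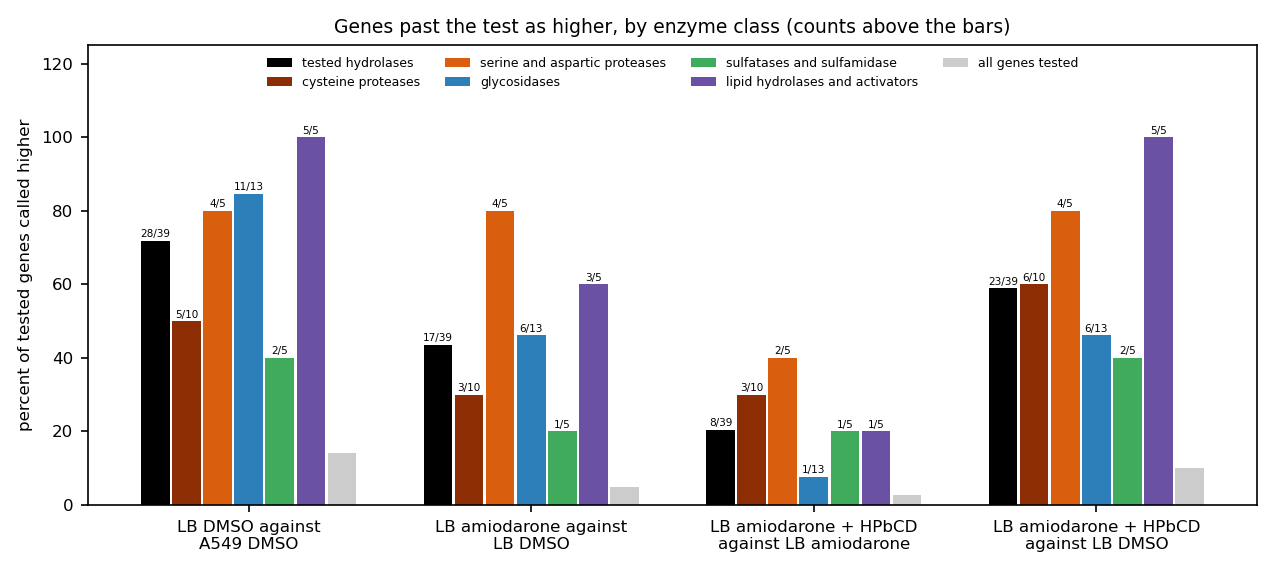
Percent of tested genes called higher (limma, adjusted p under 0.05) in each of the 4 comparisons, for the 39 tested hydrolases, for 5 enzyme classes and for all 13968 tested genes, with counts above the bars. The hydrolase bars reach 28, 17, 8 and 23 of 39, above the bars of all genes at 14.2, 4.9, 2.71 and 10.1%.

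CTSL was the hydrolase transcript with the highest mean level over the 12 libraries and was higher in the first group of every comparison. Cathepsin L is an endopeptidase of late endosomes and lysosomes (chr9:87725519-87731393 in GRCh38). Its levels were 1872, 1767 and 1833 TPM with amiodarone plus HPbCD, 1192, 1092 and 1177 TPM with amiodarone, 848, 881 and 918 TPM with DMSO and 321, 299 and 347 TPM in A549 cells. The 12 libraries fell into 4 groups without overlap. The difference was 1.45 ± 0.056, adjusted p 2.37e-09, for LB against A549 cells, 0.39 ± 0.056, adjusted p 0.00123, for amiodarone, 0.66 ± 0.056, adjusted p 3.61e-05, for HPbCD on top of amiodarone, and 1.05 ± 0.056, adjusted p 1.37e-07, for both against DMSO. In A549 cells PSAP, at 563 TPM, stood above CTSL at 322 and CTSD at 315 TPM, and the last pair overlapped. In LB cells PSAP averaged 946 TPM and CTSL 882 TPM with DMSO, and 1177 and 1154 TPM with amiodarone, with overlap in each. With both agents CTSL, at 1824 TPM, stood above PSAP at 1270 and CTSD at 905 TPM, with no overlap. CTSL has 5 named pseudogenes, so part of its reads may have been shared out in the authors' counting.

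CTSB, a carboxydipeptidase and endopeptidase, was not called higher with amiodarone, unlike CTSL; the difference between the 2 genes was not tested. Its levels were 607, 602 and 529.5 TPM with amiodarone plus HPbCD, 423, 398 and 386 TPM with amiodarone, 450.0, 439.8 and 436 TPM with DMSO and 248, 238 and 273 TPM in A549 cells. The amiodarone libraries lay below the DMSO libraries, and those with HPbCD above both. CTSB was -0.14 ± 0.063 for amiodarone against DMSO, which missed the threshold (adjusted p 0.225), but rose by 0.52 ± 0.063, adjusted p 0.000607, with HPbCD on top of amiodarone and by 0.39 ± 0.063, adjusted p 0.00121, against DMSO. In LB against A549 cells it was higher by 0.80 ± 0.063, adjusted p 1.23e-06. CTSS, which works at near-neutral pH as well and trims the invariant chain in antigen-presenting cells, did not differ detectably between the lines. Its levels were 42.3, 37.1 and 37.8 TPM with amiodarone plus HPbCD, 23.2, 26.0 and 28.2 TPM with amiodarone, 17.4, 17.6 and 20.1 TPM with DMSO and 15.4, 17.0 and 22.5 TPM in A549 cells. LB DMSO and A549 libraries overlapped (difference 0.01 ± 0.12, adjusted p 0.94), and the amiodarone plus HPbCD libraries stood above all others. CTSS rose by 0.47 ± 0.12, adjusted p 0.0342, with amiodarone, by 0.58 ± 0.12, adjusted p 0.0199, with HPbCD on top, and by 1.05 ± 0.12, adjusted p 9.64e-05, with both. The amiodarone call was lost on leaving out LB amiodarone replicate 2 or 3 or any 1 LB DMSO library (adjusted p 0.0519 to 0.118). The call for the addition of HPbCD was lost on leaving out LB amiodarone plus HPbCD replicate 1 or 3 or LB amiodarone replicate 1 or 2 (adjusted p 0.0559 to 0.0897).

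Among the other cysteine proteases, CTSH, an aminopeptidase known to process surfactant proteins B and C, was at 39.6 ± 1.7 TPM with amiodarone plus HPbCD, 34.8 ± 0.767 TPM with amiodarone, 30.1 ± 0.85 TPM with DMSO and 30.9 ± 2.69 TPM in A549 cells. It was higher with both agents than with DMSO (0.38 ± 0.065, adjusted p 0.00157), and neither single step passed the test (0.20 ± 0.065 and 0.18 ± 0.065). LGMN, an asparaginyl endopeptidase that matures cathepsins, was higher in LB than in A549 cells (0.44 ± 0.074, adjusted p 0.000585). It was also higher with amiodarone (0.27 ± 0.074, adjusted p 0.0457). That call was lost on leaving out any 1 LB amiodarone plus HPbCD library or any 1 LB amiodarone library or any 1 LB DMSO library or A549 DMSO replicate 1 (adjusted p 0.0522 to 0.156). Its difference for HPbCD on top of amiodarone was -0.17 ± 0.074 with no overlap of libraries (adjusted p 0.25). CTSC, the dipeptidyl peptidase that activates granule serine proteases, was higher in LB than in A549 cells (0.39 ± 0.078, adjusted p 0.00231) and with both agents (0.28 ± 0.078, adjusted p 0.0291). The second call was lost on leaving out LB amiodarone plus HPbCD replicate 1 or 3 or LB DMSO replicate 1 or 2 (adjusted p 0.0843 to 0.0942). The low CTSO transcript, averaging 3.44 TPM with amiodarone plus HPbCD, 2.67 TPM with amiodarone, 2.17 TPM with DMSO and 1.11 TPM in A549 cells, passed the same comparisons (0.59 ± 0.15 and 0.50 ± 0.15). Its call for both agents was lost on leaving out any 1 LB amiodarone plus HPbCD library or LB DMSO replicate 1 or 2 (adjusted p 0.0599 to 0.14). Mean levels of LGMN were 91.9 TPM with amiodarone plus HPbCD, 104 TPM with amiodarone, 86 TPM with DMSO and 63.2 TPM in A549 cells, and those of CTSC 118 TPM with amiodarone plus HPbCD, 105 TPM with amiodarone, 97.5 TPM with DMSO and 74.5 TPM in A549 cells. CTSF, CTSK and CTSZ passed in no comparison. CTSF, another endopeptidase, averaged 35.3 TPM with amiodarone plus HPbCD, 37.1 TPM with amiodarone, 33.1 TPM with DMSO and 29 TPM in A549 cells. CTSZ, a carboxypeptidase, was at 220 ± 6.02 TPM with amiodarone plus HPbCD, 205 ± 3.06 TPM with amiodarone, 209 ± 8.71 TPM with DMSO and 195 ± 17.4 TPM in A549 cells. CTSK, the collagen-cutting protease of osteoclasts, averaged 2.5 TPM with amiodarone plus HPbCD, 2.61 TPM with amiodarone, 2.19 TPM with DMSO and 2.77 TPM in A549 cells.

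CTSD, the aspartic endopeptidase (chr11:1752752-1764573), had 881, 927 and 909 TPM with amiodarone plus HPbCD, 684, 692 and 629 TPM with amiodarone, 526, 523 and 494 TPM with DMSO and 315, 286 and 343 TPM in A549 cells. Again no group overlapped another. It rose by 0.38 ± 0.062, adjusted p 0.00287, with amiodarone and by 0.44 ± 0.062, adjusted p 0.00184, with HPbCD on top, and was higher by 0.71 ± 0.062, adjusted p 3.06e-06, in LB than in A549 cells. TPP1, a tripeptidyl peptidase whose loss causes a childhood storage disease of neurons, stood at 123 ± 6.59 TPM with amiodarone plus HPbCD, 109 ± 7.33 TPM with amiodarone, 73.6 ± 3.59 TPM with DMSO and 47.7 ± 6.54 TPM in A549 cells. It was higher in LB cells (0.62 ± 0.088, adjusted p 0.000166) and with amiodarone (0.55 ± 0.088, adjusted p 0.00231), and the further 0.18 ± 0.088 with HPbCD did not pass (adjusted p 0.317). DPP7, a dipeptidyl peptidase, averaged 230 TPM with amiodarone plus HPbCD, 181 TPM with amiodarone, 146 TPM with DMSO and 101 TPM in A549 cells. It was higher in LB cells (0.53 ± 0.077, adjusted p 0.000205), with amiodarone (0.31 ± 0.077, adjusted p 0.0307) and with HPbCD on top (0.34 ± 0.077, adjusted p 0.0292). Its amiodarone call was lost on leaving out LB amiodarone replicate 2 or 3 or LB DMSO replicate 1 or 3 (adjusted p 0.0745 to 0.114) and its HPbCD call on leaving out LB amiodarone plus HPbCD replicate 2 or 3 or LB amiodarone replicate 1 or 3 (adjusted p 0.0929 to 0.109). PRCP, a prolylcarboxypeptidase, passed in none of the comparisons, at 45.8 ± 0.84 TPM with amiodarone plus HPbCD, 47.6 ± 2.96 TPM with amiodarone, 45.1 ± 3.55 TPM with DMSO and 46.4 ± 4.39 TPM in A549 cells.

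NEU1 had the largest difference of the 39 tested hydrolases in 3 of the 4 comparisons. It encodes the lysosomal sialidase (chr6:31857659-31862906), which is active only in a complex with protective protein, the product of CTSA. Beta-galactosidase from GLB1 is also found in that complex. NEU1 levels were 238, 230.5 and 238 TPM with amiodarone plus HPbCD, 217, 211 and 213 TPM with amiodarone, 66.4, 65.8 and 62.3 TPM with DMSO and 21.9, 20.9 and 23.4 TPM in A549 cells. The drug-treated libraries stood far above the DMSO libraries, which stood far above A549, and within a group the libraries lay close together. NEU1 was higher by 1.51 ± 0.049, adjusted p 4.6e-10, in LB than in A549 cells and by 1.71 ± 0.049, adjusted p 5.88e-10, with amiodarone. HPbCD on top of amiodarone gave 0.14 ± 0.049 (adjusted p 0.152), which missed the threshold although the 3 libraries lay above those with amiodarone. Both agents against DMSO gave 1.85 ± 0.049, adjusted p 3.34e-10.

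For the line and for amiodarone the partners of NEU1 moved the same way by less. Hydrolases outside the complex did so too, such as TPP1 and HEXA at 0.55 ± 0.088 and 0.35 ± 0.054 for amiodarone. Others did not, such as GAA at 0.01 ± 0.081. With HPbCD on top CTSA and GLB1 gave 0.14 ± 0.06 and 0.16 ± 0.078, beside 0.14 ± 0.049 for NEU1, and none of them passed. CTSA (chr20:45890144-45898820), a serine carboxypeptidase, had 186, 204 and 196 TPM with amiodarone plus HPbCD, 181, 187 and 162 TPM with amiodarone, 144, 143 and 143 TPM with DMSO and 90.4, 81.5 and 87.9 TPM in A549 cells. Amiodarone libraries lay above DMSO libraries, and overlapped those with HPbCD. Its differences were 0.72 ± 0.06, adjusted p 2.03e-06, for LB against A549 cells and 0.30 ± 0.06, adjusted p 0.0103, for amiodarone. GLB1 had 94.0, 83.8 and 91.6 TPM with amiodarone plus HPbCD, 82.3, 76.8 and 82.3 TPM with amiodarone, 60.8, 64.0 and 68.5 TPM with DMSO and 50.9, 51.2 and 61.9 TPM in A549 cells. Its difference for amiodarone was 0.32 ± 0.078, adjusted p 0.0281, with groups apart, and for LB against A549 cells 0.24 ± 0.078, adjusted p 0.0351, with groups overlapping. The amiodarone call of GLB1 was lost on leaving out LB amiodarone replicate 1 or 3 or LB DMSO replicate 1 or 2 (adjusted p 0.0776 to 0.104), and its line call on leaving out LB DMSO replicate 2 or 3 or A549 DMSO replicate 1 or 2 (adjusted p 0.0763 to 0.125). With both agents GLB1 was higher by 0.47 ± 0.078, adjusted p 0.00135, a call kept with each library left out (adjusted p up to 0.00875). GALNS, a sulfatase also found in that complex, gave -0.03 ± 0.087 with HPbCD on top. It rose by 0.31 ± 0.087, adjusted p 0.0438, with amiodarone. That call was lost on leaving out any 1 LB amiodarone plus HPbCD library or any 1 LB amiodarone library or any 1 LB DMSO library or A549 DMSO replicate 1 (adjusted p 0.0545 to 0.125).

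**Figure D3:**
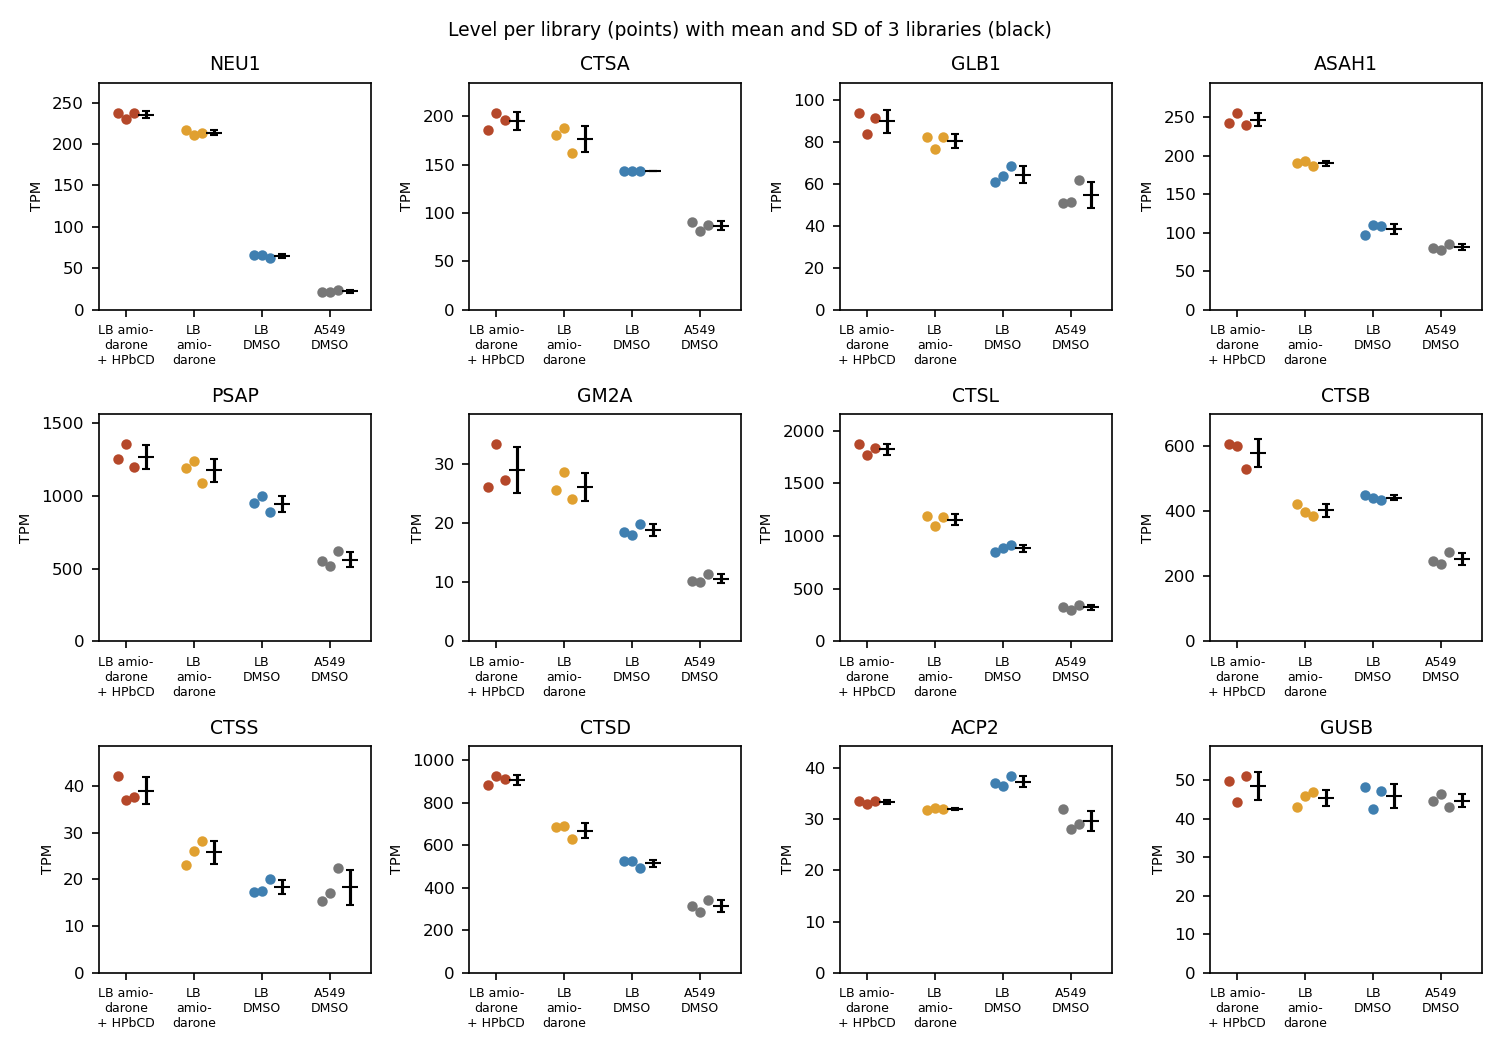
TPM of 12 hydrolase genes in each library (coloured points), with the mean and SD of 3 libraries in black, for LB cells with amiodarone plus HPbCD, amiodarone or DMSO and A549 cells with DMSO. NEU1 averages 235 TPM with amiodarone plus HPbCD, 214 TPM with amiodarone, 64.8 TPM with DMSO and 22.1 TPM in A549 cells, while GUSB averages 48.5 TPM with amiodarone plus HPbCD, 45.4 TPM with amiodarone, 46 TPM with DMSO and 44.7 TPM in A549 cells.

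Of the other glycosidases, HEXA, the alpha chain of beta-hexosaminidase A that is lost in Tay-Sachs disease, stood at 271 ± 10.2 TPM with amiodarone plus HPbCD, 245 ± 2.67 TPM with amiodarone, 193 ± 7.12 TPM with DMSO and 135 ± 9.95 TPM in A549 cells. It was higher in LB cells (0.51 ± 0.054, adjusted p 1.41e-05) and with amiodarone (0.35 ± 0.054, adjusted p 0.00202). GLA, the alpha-galactosidase of Fabry disease, stood at 237 ± 2.29 TPM with amiodarone plus HPbCD, 207 ± 7.53 TPM with amiodarone, 182 ± 6.25 TPM with DMSO and 138 ± 1.69 TPM in A549 cells and was higher at each step: 0.40 ± 0.041, adjusted p 1.21e-05, for the line, 0.18 ± 0.041, adjusted p 0.0178, for amiodarone, and 0.19 ± 0.041, adjusted p 0.0209, for HPbCD on top. Its amiodarone call was lost on leaving out LB amiodarone replicate 3 or LB DMSO replicate 1 (adjusted p 0.0707 to 0.0776) and its HPbCD call on leaving out any 1 LB amiodarone plus HPbCD library or LB amiodarone replicate 1 or 2 (adjusted p 0.0568 to 0.0873). NAGLU, which takes N-acetylglucosamine off heparan sulfate, averaged 66.5 TPM with amiodarone plus HPbCD, 60.8 TPM with amiodarone, 47.1 TPM with DMSO and 40.6 TPM in A549 cells. It was higher with amiodarone (0.36 ± 0.073, adjusted p 0.0102) and in LB cells (0.21 ± 0.073, adjusted p 0.0466). The line call was lost on leaving out LB amiodarone plus HPbCD replicate 2 or LB amiodarone replicate 3 or any 1 LB DMSO library or any 1 A549 DMSO library (adjusted p 0.0501 to 0.132). MANBA, the beta-mannosidase, averaged 9.36 TPM with amiodarone plus HPbCD, 9.65 TPM with amiodarone, 7.39 TPM with DMSO and 6.08 TPM in A549 cells. It passed for the line (0.25 ± 0.088, adjusted p 0.0474), for amiodarone (0.34 ± 0.088, adjusted p 0.0321) and for both agents (0.30 ± 0.088, adjusted p 0.0321). The MANBA line call was lost on leaving out any 1 LB amiodarone plus HPbCD library or any 1 LB amiodarone library or any 1 LB DMSO library or A549 DMSO replicate 1 or 2 (adjusted p 0.0511 to 0.154). Its amiodarone call was lost on leaving out any 1 LB amiodarone library or any 1 LB DMSO library (adjusted p 0.0602 to 0.104), and its call for both agents on leaving out any 1 LB amiodarone plus HPbCD library or any 1 LB DMSO library (adjusted p 0.0514 to 0.112).

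Another 5 genes of the glycosidase class differed between the lines and passed in no drug comparison. GALC, which splits galactosylceramide in myelin, had 28.9, 28.1 and 27.7 TPM with amiodarone plus HPbCD, 29.5, 33.1 and 32.9 TPM with amiodarone, 27.5, 29.8 and 29.3 TPM with DMSO and 15.8, 14.3 and 19.1 TPM in A549 cells. All LB libraries lay above all A549 libraries, and the line difference was 0.79 ± 0.09, adjusted p 3.05e-05. GAA, the acid alpha-glucosidase of glycogen, averaged 79.2 TPM with amiodarone plus HPbCD, 78.9 TPM with amiodarone, 78.3 TPM with DMSO and 62.3 TPM in A549 cells, with 0.33 ± 0.081, adjusted p 0.00773, for the line and 0.01 ± 0.081 for amiodarone. AGA, MAN2B1 and FUCA1 act on glycoprotein sugars. AGA averaged 24.5 TPM with amiodarone plus HPbCD, 27.7 TPM with amiodarone, 25.7 TPM with DMSO and 20.5 TPM in A549 cells. MAN2B1 averaged 27 TPM with amiodarone plus HPbCD, 26 TPM with amiodarone, 25.4 TPM with DMSO and 21.1 TPM in A549 cells, and FUCA1 14.9 TPM with amiodarone plus HPbCD, 15.5 TPM with amiodarone, 13.2 TPM with DMSO and 10.9 TPM in A549 cells. In LB against A549 cells AGA, MAN2B1 and FUCA1 were higher by 0.33 ± 0.11, adjusted p 0.0376, by 0.26 ± 0.092, adjusted p 0.0482, and by 0.25 ± 0.083, adjusted p 0.0346. The LB DMSO and A549 libraries of AGA overlapped. The AGA call was lost on leaving out any 1 LB DMSO library or A549 DMSO replicate 1 or 2 (adjusted p 0.0625 to 0.125). The MAN2B1 call was lost on leaving out LB amiodarone plus HPbCD replicate 1 or 3 or any 1 LB amiodarone library or LB DMSO replicate 1 or 2 or A549 DMSO replicate 2 or 3 (adjusted p 0.0519 to 0.173) and the FUCA1 call on leaving out LB DMSO replicate 2 or 3 or A549 DMSO replicate 1 or 2 (adjusted p 0.0735 to 0.113). GUSB, the beta-glucuronidase, and IDUA, the iduronidase of heparan and dermatan sulfate, passed in no comparison. GUSB had 49.9, 44.5 and 51.2 TPM with amiodarone plus HPbCD, 43.1, 45.9 and 47.1 TPM with amiodarone, 48.2, 42.5 and 47.3 TPM with DMSO and 44.5, 46.5 and 43.1 TPM in A549 cells, with overlap between all groups. IDUA averaged 14.4 TPM with amiodarone plus HPbCD, 12.8 TPM with amiodarone, 11.9 TPM with DMSO and 13.2 TPM in A549 cells. GUSB has 10 named pseudogenes.

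Sulfatases, which strip sulfate from glycosaminoglycans and sulfatide after activation by SUMF1, had the lowest count of calls for the line among the 5 larger classes. It was 2 of 5, beside 14.2% of all tested genes called higher. IDS, the iduronate sulfatase, stood at 93.9 ± 2.25 TPM with amiodarone plus HPbCD, 79 ± 3.07 TPM with amiodarone, 75.4 ± 1.62 TPM with DMSO and 70 ± 2.68 TPM in A549 cells. IDS was higher with HPbCD on top of amiodarone (0.25 ± 0.048, adjusted p 0.0131) and with both agents (0.31 ± 0.048, adjusted p 0.000776), while amiodarone alone gave 0.07 ± 0.048 (adjusted p 0.459). Its call on top of amiodarone did not hold on leaving out LB amiodarone plus HPbCD replicate 2 or LB amiodarone replicate 3 (adjusted p 0.0568 to 0.0587). GALNS, the galactosamine-6-sulfatase, stood at 50.4 ± 1.9 TPM with amiodarone plus HPbCD, 51.6 ± 2.12 TPM with amiodarone, 41.3 ± 1.11 TPM with DMSO and 30.9 ± 4.62 TPM in A549 cells. It was higher in LB than in A549 cells (0.42 ± 0.087, adjusted p 0.00264) and with both agents (0.28 ± 0.087, adjusted p 0.0428). The call for both agents was lost on leaving out any 1 LB amiodarone plus HPbCD library or any 1 LB amiodarone library or any 1 LB DMSO library or A549 DMSO replicate 1 (adjusted p 0.0513 to 0.126). ARSA, the arylsulfatase of sulfatide, averaged 23 TPM with amiodarone plus HPbCD, 25.1 TPM with amiodarone, 23.5 TPM with DMSO and 17 TPM in A549 cells. It was higher in LB than in A549 cells (0.45 ± 0.13, adjusted p 0.0155), and that call was lost on leaving out LB DMSO replicate 1 or 2 or A549 DMSO replicate 3 (adjusted p 0.0518 to 0.0581). ARSB, which acts on dermatan and chondroitin sulfate, and the sulfamidase SGSH passed in no comparison. ARSB averaged 9.32 TPM with amiodarone plus HPbCD, 9.73 TPM with amiodarone, 9.88 TPM with DMSO and 8.69 TPM in A549 cells. SGSH averaged 16.4 TPM with both agents and 19.9 TPM with DMSO, -0.26 ± 0.15 with adjusted p 0.261, and its libraries did not overlap.

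Lipid hydrolases and activators were higher in LB than in A549 cells in 5 of 5 cases, beside 14.2% of all tested genes. ASAH1, the acid ceramidase that yields sphingosine, had 243, 256 and 240.4 TPM with amiodarone plus HPbCD, 190.1, 193 and 187 TPM with amiodarone, 97.5, 109.5 and 108 TPM with DMSO and 80, 77.7 and 85.9 TPM in A549 cells. No group overlapped another. Its differences were 0.37 ± 0.055, adjusted p 0.000246, for the line, 0.85 ± 0.055, adjusted p 9.75e-07, for amiodarone, 0.37 ± 0.055, adjusted p 0.00233, for HPbCD on top, and 1.22 ± 0.055, adjusted p 3.16e-08, for both. PSAP, the saposin precursor (chr10:71816298-71851375), had 1254, 1358 and 1197 TPM with amiodarone plus HPbCD, 1196, 1244 and 1092 TPM with amiodarone, 951, 999 and 888 TPM with DMSO and 549.5, 516 and 622 TPM in A549 cells. Its LB DMSO libraries lay above A549 and below amiodarone, and the 2 drug groups overlapped. PSAP was higher by 0.75 ± 0.075, adjusted p 1e-05, for the line and by 0.31 ± 0.075, adjusted p 0.0237, for amiodarone. The second call was lost on leaving out LB amiodarone replicate 1 or 2 or LB DMSO replicate 1 or 3 (adjusted p 0.0658 to 0.0952).

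GM2A, which lifts ganglioside GM2 for hexosaminidase, had 26.1, 33.3 and 27.2 TPM with amiodarone plus HPbCD, 25.6, 28.6 and 24.0 TPM with amiodarone, 18.5, 17.9 and 19.9 TPM with DMSO and 10.1, 10.1 and 11.4 TPM in A549 cells. The A549 libraries were lowest, then DMSO, and the drug groups overlapped. Its differences were 0.78 ± 0.098, adjusted p 6.77e-05, for the line and 0.45 ± 0.098, adjusted p 0.0144, for amiodarone. The second call was lost on leaving out LB amiodarone replicate 2 or LB DMSO replicate 1 or 2 (adjusted p 0.0515 to 0.0636). SMPD1, the acid sphingomyelinase that cationic amphiphilic drugs are known to inhibit, stood at 14.1 ± 1.08 TPM with amiodarone plus HPbCD, 13.8 ± 1.25 TPM with amiodarone, 11.3 ± 0.133 TPM with DMSO and 8.14 ± 0.684 TPM in A549 cells. PPT1, a thioesterase that removes palmitate from proteins, stood at 94.4 ± 3.72 TPM with amiodarone plus HPbCD, 91 ± 8.25 TPM with amiodarone, 77.9 ± 6.1 TPM with DMSO and 59.8 ± 5.19 TPM in A549 cells. They were higher in LB than in A549 cells (0.43 ± 0.088, adjusted p 0.0026, and 0.38 ± 0.082, adjusted p 0.0037), and missed the threshold with amiodarone (0.26 ± 0.088, adjusted p 0.0885, and 0.22 ± 0.082, adjusted p 0.123). With both agents SMPD1 passed at 0.30 ± 0.088, adjusted p 0.0362, and PPT1 at 0.28 ± 0.082, adjusted p 0.0351. The SMPD1 call was lost on leaving out LB amiodarone plus HPbCD replicate 2 or 3 or any 1 LB DMSO library (adjusted p 0.0786 to 0.127) and the PPT1 call on leaving out any 1 LB amiodarone plus HPbCD library or LB DMSO replicate 1 or 2 (adjusted p 0.0629 to 0.119).

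ACP2, the membrane-bound lysosomal acid phosphatase, was the 1 tested hydrolase called lower in any comparison. Its levels were 33.7, 33.0 and 33.6 TPM with amiodarone plus HPbCD, 31.9, 32.2 and 32.0 TPM with amiodarone, 37.0, 36.6 and 38.6 TPM with DMSO and 32.0, 28.1 and 29.01 TPM in A549 cells. DMSO libraries of LB cells were highest, and the other 3 groups lay below them. ACP2 was higher in LB than in A549 cells (0.32 ± 0.056, adjusted p 0.000794) and lower with amiodarone (-0.22 ± 0.056, adjusted p 0.0347). That call was lost on leaving out LB amiodarone plus HPbCD replicate 1 or 3 or any 1 LB amiodarone library or any 1 LB DMSO library (adjusted p 0.0506 to 0.123). ACP5, the tartrate-resistant phosphatase known from osteoclasts and macrophages, had 1.4, 2.38 and 2.1 TPM with amiodarone plus HPbCD, 1.0, 1.29 and 1.63 TPM with amiodarone, 0.86, 0.49 and 0.26 TPM with DMSO and 0.16, 0.05 and 0 TPM in A549 cells. It was too low for the test over genes of at least 1 TPM. In a fit with no filter its difference was 0.95 ± 0.18 for both agents against DMSO (limma, adjusted p 0.00908), and the adjusted p was 0.0875 for the line, 0.124 for amiodarone and 0.515 for HPbCD on top. Osteoclast markers were near 0: CALCR and OCSTAMP stayed at or under 0.05 TPM and DCSTAMP was listed at 0 in all libraries.

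**Figure D4:**
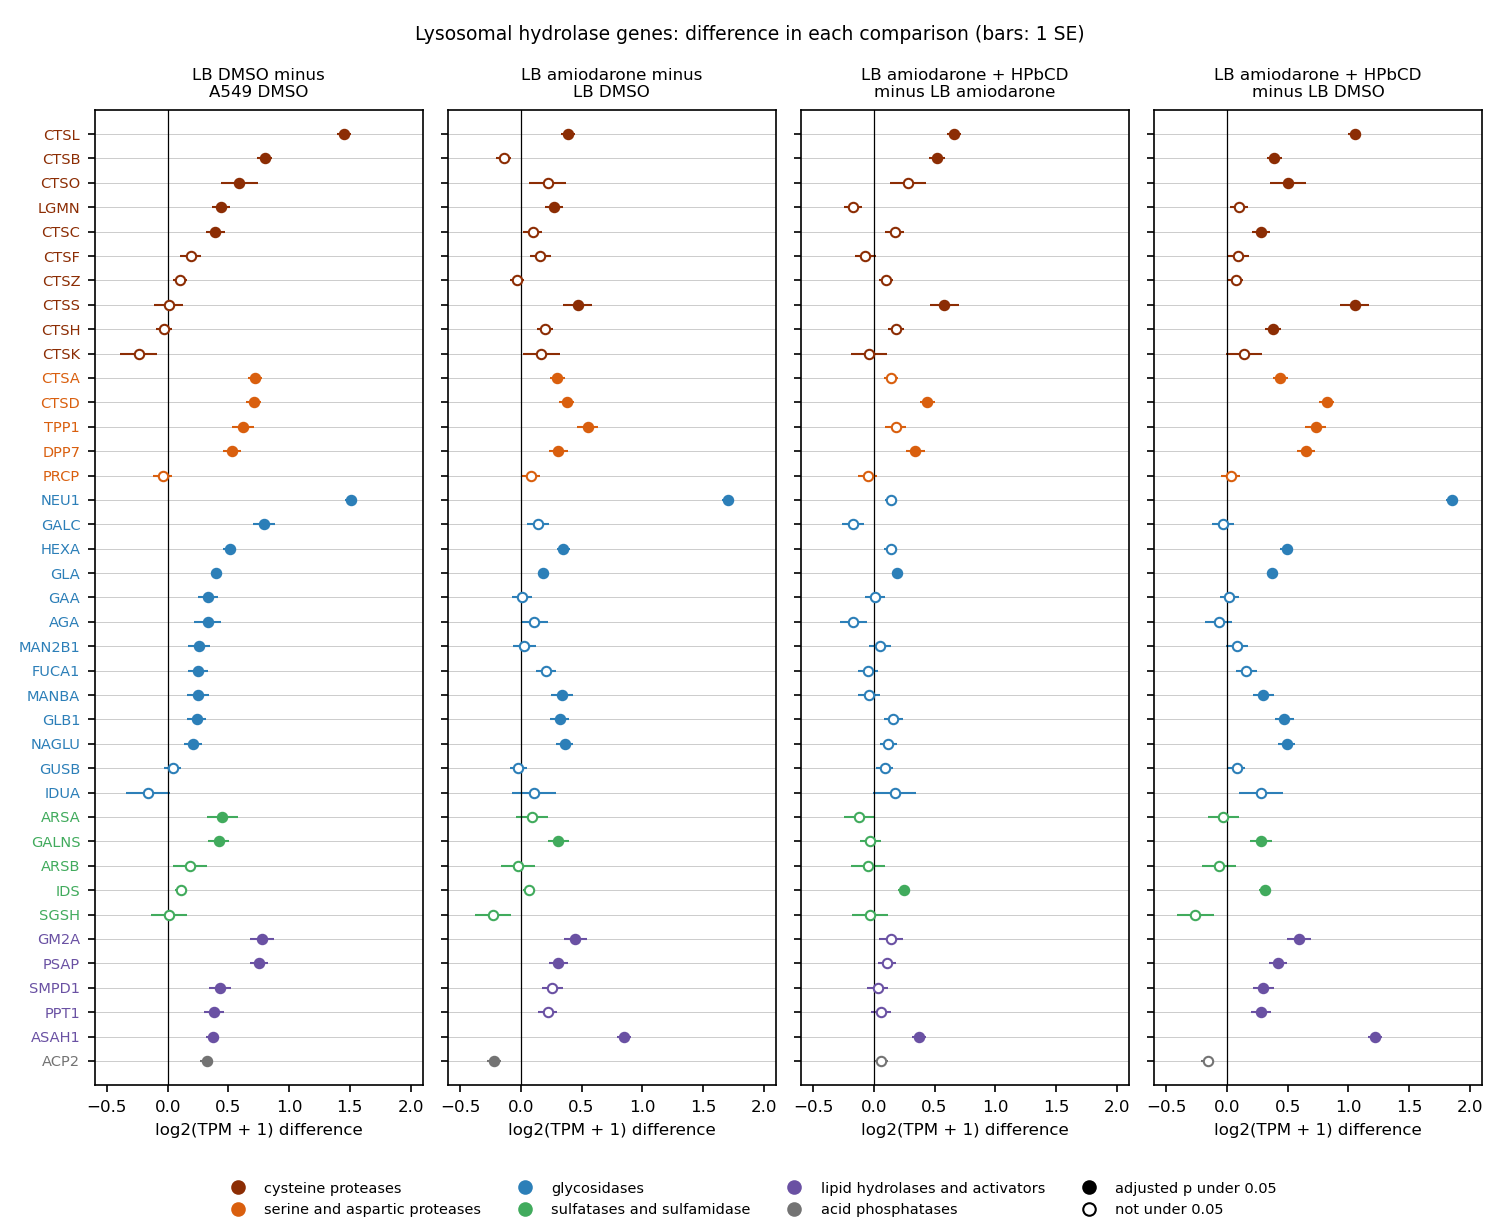
Difference in log2(TPM + 1) of the 39 tested hydrolases in each comparison, as the first group minus the second, with bars of 1 SE; filled points have a limma adjusted p under 0.05. NEU1 stands at 1.51, 1.71, 0.14 and 1.85 from left to right, and CTSL at 1.45, 0.39, 0.66 and 1.05.

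Of 20 further lysosomal hydrolases and partners, 19 were tested. In LB against A549 cells 11 were higher and 1 lower, beside 14.2% and 18.2% of all tested genes. With amiodarone 7 were higher and 1 lower, beside 4.9% and 3.72%, and with both agents 8 and 1, beside 10.1% and 7.81%. With HPbCD on top 1 was higher and 0 lower, near the 2.71% and 1.36% of all tested genes. LIPA, the acid lipase of cholesteryl esters, had 99.3, 97.9 and 94.9 TPM with amiodarone plus HPbCD, 105, 117 and 111.7 TPM with amiodarone, 59.5, 60.2 and 64.8 TPM with DMSO and 53.3, 52.4 and 61.2 TPM in A549 cells. It rose by 0.84 ± 0.066, adjusted p 5.55e-06, with amiodarone, and HPbCD on top gave -0.19 ± 0.066 (adjusted p 0.149). NPC2, a sterol carrier of the lysosome rather than a hydrolase, had 513, 525 and 515 TPM with amiodarone plus HPbCD, 414, 427 and 402 TPM with amiodarone, 219.8, 221 and 199 TPM with DMSO and 127, 153 and 133 TPM in A549 cells. Its differences were 0.95 ± 0.064, adjusted p 1.36e-06, for amiodarone and 0.32 ± 0.064, adjusted p 0.0154, for HPbCD on top. The second call was lost on leaving out any 1 LB amiodarone plus HPbCD library or LB amiodarone replicate 1 or 3 (adjusted p up to 0.0658).

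Of 15 sorting and activation genes, 4 were higher and 1 lower in LB than in A549 cells, beside 14.2% and 18.2% of all tested genes. With amiodarone 3 were higher and 0 lower, beside 4.9% and 3.72%, with HPbCD on top 1 and 0, beside 2.71% and 1.36%, and with both agents 5 and 1, beside 10.1% and 7.81%. The median difference of the 15 was 0.03 for the line, 0.04 for amiodarone, 0.03 for the addition of HPbCD and 0.05 for both agents. M6PR, the cation-dependent mannose 6-phosphate receptor, had 274, 283 and 279 TPM with amiodarone plus HPbCD, 219, 209.6 and 238 TPM with amiodarone, 157, 136 and 147 TPM with DMSO and 134, 127 and 124 TPM in A549 cells. It rose by 0.60 ± 0.059, adjusted p 5.18e-05, with amiodarone, by 0.33 ± 0.059, adjusted p 0.00914, with HPbCD on top, and by 0.92 ± 0.059, adjusted p 5.3e-07, with both. IGF2R, the larger receptor, averaged 47.4 TPM with amiodarone plus HPbCD, 43.6 TPM with amiodarone, 30.2 TPM with DMSO and 16.2 TPM in A549 cells, with 0.87 ± 0.092, adjusted p 1.58e-05, for the line and 0.52 ± 0.092, adjusted p 0.00443, for amiodarone. SORT1, an alternative sorting receptor, was lower in LB than in A549 cells (-0.79 ± 0.088, adjusted p 2.69e-05). GNPTAB, which makes the mannose 6-phosphate tag, and SUMF1 passed in no comparison, with differences of 0.04 ± 0.091 and 0.14 ± 0.095 for amiodarone.

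Among 10 protease inhibitors 6 were tested. CSTB, cystatin B, which binds cathepsins in the cytosol, had 429, 419 and 400.4 TPM with amiodarone plus HPbCD, 263, 270.3 and 259 TPM with amiodarone, 127, 132 and 129.9 TPM with DMSO and 90.0, 94.0 and 95.7 TPM in A549 cells. No group overlapped another. Of the 6 it alone passed with amiodarone (1.02 ± 0.042, adjusted p 1.39e-08), with HPbCD on top (0.65 ± 0.042, adjusted p 6.33e-06) and with both agents (1.67 ± 0.042, adjusted p 2.45e-10). In LB against A549 cells 5 inhibitors were higher and 1 lower, beside 14.2% and 18.2% of all tested genes, the largest difference being that of CST1 (2.22 ± 0.21, adjusted p 6.19e-06), at 6.39 TPM in LB DMSO against 0.593 TPM in A549 cells. Of the transcription factors, TFE3 was at 51.4 ± 1.67 TPM with amiodarone plus HPbCD, 53.2 ± 0.429 TPM with amiodarone, 54.4 ± 1.68 TPM with DMSO and 55.4 ± 1.66 TPM in A549 cells and passed in no comparison. TFEB had 1.63, 2.23 and 2.01 TPM with amiodarone plus HPbCD, 2.94, 3.75 and 5.29 TPM with amiodarone, 5.13, 4.32 and 3.59 TPM with DMSO and 3.78, 4.04 and 3.65 TPM in A549 cells. It was lower with both agents than with DMSO (-0.85 ± 0.17, adjusted p 0.00433), and lower than with amiodarone alone (-0.73 ± 0.17, adjusted p 0.0311). That call was lost on leaving out any 1 LB amiodarone plus HPbCD library or LB amiodarone replicate 2 or 3 (adjusted p up to 0.129). MITF was lower in LB than in A549 cells (-1.90 ± 0.19, adjusted p 8.98e-06), at 2.62 TPM in LB DMSO against 12.7 TPM in A549 cells. Transcript levels say nothing of the location of these factors in the cell.

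Promoters are shown for 5 hydrolases. NEU1 and CTSA are partners in a complex and had the same calls. CTSD and CTSL passed at every step, and GAA did not pass with the drug. The windows, credited to RefSeq (GRCh38.p14), run 5′ to 3′ from 250 bases before to 50 bases after the RefSeq start of the gene, and capitals mark the E-box CACGTG, its longer form TCACGTGA or the CLEAR palindrome, which has a further G before and C after the longer form. Their positions are chr6:31862772-31863071, minus strand, for NEU1, chr20:45891085-45891384, plus strand, for CTSA, chr11:1763878-1764177, minus strand, for CTSD, chr17:80101331-80101630, plus strand, for GAA, and chr9:87725869-87726168, plus strand, for CTSL. These RefSeq starts lie inside the GENCODE gene bounds given above: 1191 bases downstream of the bound for CTSA, 646 for CTSD, 600 for CTSL, 85 for NEU1 and 25 for GAA, where the bound is the outermost transcript. Each lies within 6 bases of the start of a GENCODE transcript of the gene, and which start these cells use was not measured.
NEU1: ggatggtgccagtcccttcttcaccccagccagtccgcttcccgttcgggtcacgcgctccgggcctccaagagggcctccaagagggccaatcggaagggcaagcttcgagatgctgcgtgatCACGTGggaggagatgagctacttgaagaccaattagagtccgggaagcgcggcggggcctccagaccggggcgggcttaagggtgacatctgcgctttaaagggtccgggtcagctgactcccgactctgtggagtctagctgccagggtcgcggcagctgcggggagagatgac
CTSA: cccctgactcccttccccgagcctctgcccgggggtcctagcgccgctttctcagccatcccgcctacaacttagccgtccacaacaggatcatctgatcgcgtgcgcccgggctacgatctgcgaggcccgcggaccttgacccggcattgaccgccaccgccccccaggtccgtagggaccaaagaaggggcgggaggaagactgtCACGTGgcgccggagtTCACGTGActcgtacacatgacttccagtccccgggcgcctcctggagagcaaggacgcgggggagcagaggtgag
CTSD: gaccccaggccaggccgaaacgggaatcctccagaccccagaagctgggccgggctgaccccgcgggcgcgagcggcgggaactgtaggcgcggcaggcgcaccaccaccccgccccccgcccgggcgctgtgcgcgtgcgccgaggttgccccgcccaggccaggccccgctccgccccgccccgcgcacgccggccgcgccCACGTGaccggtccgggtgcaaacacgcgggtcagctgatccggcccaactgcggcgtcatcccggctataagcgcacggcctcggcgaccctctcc
GAA: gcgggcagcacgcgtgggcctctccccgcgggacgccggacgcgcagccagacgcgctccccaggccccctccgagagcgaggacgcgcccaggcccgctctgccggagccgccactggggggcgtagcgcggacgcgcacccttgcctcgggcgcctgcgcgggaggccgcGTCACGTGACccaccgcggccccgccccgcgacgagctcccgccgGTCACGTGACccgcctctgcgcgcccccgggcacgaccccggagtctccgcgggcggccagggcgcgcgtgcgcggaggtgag
CTSL: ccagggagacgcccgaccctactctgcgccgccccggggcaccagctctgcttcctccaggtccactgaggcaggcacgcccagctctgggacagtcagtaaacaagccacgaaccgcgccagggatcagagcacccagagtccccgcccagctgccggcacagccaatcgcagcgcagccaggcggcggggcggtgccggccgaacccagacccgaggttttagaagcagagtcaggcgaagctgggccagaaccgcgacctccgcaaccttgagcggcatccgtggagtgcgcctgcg
Counted from the RefSeq start, NEU1 holds an E-box 126 bases upstream, CTSD 1 at 47 bases, CTSA an E-box at 42 and the longer form at 26 bases, and GAA the palindrome at 78 and 33 bases. None of the 3 forms is in the CTSL window. Among all hydrolases with a window, 9 of 28 held an E-box, so the genes shown over-represent it.

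Windows were found for 28 of the 40 hydrolases, 38 windows in all. The motifs were read on both strands, each being its own reverse complement, and each longer form contains the shorter ones. Of these hydrolases 6 had several windows. An E-box lay in 9 of the 38 windows (23.7%), of ACP5, ARSB, CTSA, CTSD, CTSF, DPP7, GAA, GALNS and NEU1. The share was 7.26% of the 35116 windows in the table and 8.34% of the 22198 windows of protein-coding genes. The longer form lay in 3 (7.89%, beside 0.98% and 1.27%), of CTSA, GAA and GALNS. The palindrome lay in 2 (5.26%, beside 0.353% and 0.496%), of GAA and GALNS. Of the 8 tested hydrolases with an E-box in a window and the 19 without, 6 and 13 were higher for the line (14.2% of all tested genes), 5 and 5 for amiodarone (4.9%), 2 and 3 for the addition of HPbCD (2.71%) and 5 and 10 for both agents (10.1%). No test of these counts was made. These letters are matches, not shown binding sites, and hydrolases with no window are ARSA, ASAH1, CTSB, CTSK, CTSO, CTSS, HEXA, LGMN, MANBA, NAGLU, PSAP and SGSH.

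The 40 genes lie on 18 chromosomes, all as protein-coding genes in GENCODE 29 on GRCh38. CTSL, LGMN, GUSB, FUCA1, IDS and GM2A have named pseudogenes, and 12 of the 40 overlap another annotated gene on the same strand, so their TPM is less certain. Another gene on the opposite strand overlaps 18. By mean level over the 12 libraries, 11 hydrolases were at or above 100 TPM, 24 between 10 and 100, 4 between 1 and 10, and 1 under 1 TPM.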

How the data were processed

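Stranded mRNA libraries of 12 samples were read as 100-bp pairs, per the labels' protocols. The authors deposited TPM per gene symbol, made with STAR 2.7.3a, RSEM 1.3.1 and GRCh38, per the submitters' processing notes; no source used here names the annotation release. RSEM divides reads shared between near-identical genes by estimate. Of 57189 rows 57152 held values, and TPM totals lay between 999449 and 999632. TPM holds no counts, so no interval or floor was computed.

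From the deposited TPM, log2(TPM + 1) of the 13968 genes averaging 1 TPM or more was fitted with limma 3.58.1 (R 4.3.3): 4 groups, 8 residual degrees of freedom, mean-variance trend, two-sided p adjusted by Benjamini-Hochberg within each comparison. The fit was also run on simulated data, where it was required only to recover large changes, which says nothing of smaller ones. The 40 hydrolases, the other lists and the naming rule (any hydrolase; up to 4 genes past the test per other list and comparison; fixed markers, receptors and factors) were chosen with earlier results of these data known. E-box forms were searched in RefSeq promoters. Some genes of the further lists are not reported here. Alternatives were pseudocounts of 0.1 and 5, no filter or one at 5 TPM, median-of-ratios and quantile scaling, no trend, array weights, a fit of the groups compared alone, a replicate block and each library left out. 0 value columns lacked a sample.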

Additional observations from a re-analysis of the deposited data

How the results depend on the processing

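No hydrolase call and no median over all hydrolases changed direction under any alternative tried. The counts and the all-hydrolase medians that moved most are given here. Class medians with single libraries left out stand in the report, for amiodarone and for the addition of HPbCD. The cause was not tested. For amiodarone against DMSO, 17 hydrolases were called higher in the report, 10 with no filter and 10 with limma without trend. Among all genes 520 were called lower, 330 with no filter and 329 without trend. For the addition of HPbCD all genes called lower numbered 190, 106 with no filter and 321 with array weights. With both agents 0 hydrolases were called lower, and 1, ACP2, with array weights. The median difference of the hydrolases was 0.178 for amiodarone and 0.257 for both agents at a pseudocount of 5, and 0.072 for the addition of HPbCD after quantile scaling, against 0.211, 0.295 and 0.109. No scaling moved the median of all genes by over 0.1.

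With each library left out in turn, amiodarone gave 8 to 18 hydrolases higher and 0 to 1 lower, 425 to 826 of all genes higher and 200 to 671 lower, and a median of 0.199 to 0.252. The addition of HPbCD gave 5 to 8 hydrolases higher, 192 to 523 of all genes higher and 82 to 302 lower, and a median of 0.083 to 0.123. Both agents gave 0 to 1 hydrolases lower, 671 to 1272 of all genes lower and a median of 0.292 to 0.327. Over all alternatives, 20 of 28 line calls, 8 of 18 amiodarone calls, 4 of 8 calls for the addition of HPbCD and 17 of 23 calls for both agents were kept.

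Replicate numbers were taken as names: deviations of same-numbered libraries correlated between -0.065 and 0.212, and not every library correlated best with its own number. A replicate block gave 26, 16, 8 and 23 hydrolases higher in the 4 comparisons; it lost the line calls of MAN2B1 (limma, adjusted p 0.0554) and MANBA (0.0652) and the amiodarone call of LGMN (0.0646). Read depth is unknown, so the precision of low transcripts such as ACP5, CTSK and CTSO cannot be set.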
